A study of Mus musculus with 2 samples.

Results

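The genes described here are 10 microRNA (miRNA) genes of 5 families best known from the nervous system, measured in the limb of mouse embryos: Mir7-1, Mir7-2, Mir7b, Mir128-1, Mir128-2, Mir137, Mir218-1, Mir218-2, Mir219a-1 and Mir219a-2. They were chosen by name, and each was found by its Ensembl identifier among the 1973 miRNA gene rows of the deposited tables. The samples are limb tissue of B6NCrl strain embryos of both sexes at embryonic day 10.5, with 69 embryos pooled for replicate 1 and 51 for replicate 2. The 2 libraries form 1 group with no treatment or mutant, so no contrast between conditions exists and no p-value is given.

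Reads in the sense orientation of miRNA genes came to 3581672 in replicate 1 and 3576482 in replicate 2. Levels are given as CPM, counts per 1000000 of those sense counts, and 1 count was worth 0.279 CPM in replicate 1 and 0.280 CPM in replicate 2. Intervals after a value are 95% exact binomial (Clopper-Pearson) intervals, and they cover counting error only, because PCR can copy 1 molecule into many reads. As a description of the tissue, 7 miRNA genes listed for limb mesenchyme had a summed level of 26453 ± 3202 CPM (SD, n = 2). They were Mir199a-1, Mir199a-2, Mir199b, Mir214, Mir22, Mir143 and Mir145a. Mir214 alone gave 18552 CPM of the sum, and Mir143 gave 4993 CPM. Mir143 and Mir145a are also grouped with vascular miRNAs, so the sum need not come from mesenchyme alone. All 7 had at least 10 counts in both libraries, against 17.6% of all gene rows. So did all 7 listed genes of epithelium and all 3 of sensory cells, so this count does not test the limb label.

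A miRNA is cut from a hairpin in a longer transcript, and 1 arm of the hairpin, the guide, is usually retained by an Argonaute protein. The seed, bases 2 to 8 of the guide, pairs with target messenger RNAs and lowers their output. In the nervous system miR-7 is known from neurosecretory cells and from its many binding sites on the circular RNA Cdr1as, miR-128 and miR-137 from maturing neurons, miR-218 from motor neurons and miR-219 from oligodendrocytes, the cells that make myelin. Several of these hairpins lie in introns of protein-coding genes and are carried by the transcripts of those hosts.

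The 10 genes encode 6 different guides, printed here 5′ to 3′ with the seed in capitals because the sharing of a guide between loci decides which reads could be counted (RefSeq, GRCm38.p6).
miR-7a-5p, from Mir7-1 and Mir7-2: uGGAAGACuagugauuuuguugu
miR-7b-5p, from Mir7b: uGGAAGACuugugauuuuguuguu
miR-128-3p, from Mir128-1 and Mir128-2: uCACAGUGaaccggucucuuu
miR-137-3p, from Mir137: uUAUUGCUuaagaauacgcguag
miR-218-5p, from Mir218-1 and Mir218-2: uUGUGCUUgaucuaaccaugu
miR-219a-5p, from Mir219a-1 and Mir219a-2: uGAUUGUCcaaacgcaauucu

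These make 5 seeds, since miR-7a-5p and miR-7b-5p share GGAAGAC. Over their common length these guides differ by A10U, with positions counted from the 5′ end and the miR-7a-5p base first. Among the other mouse miRNAs of the RefSeq table, no other gene carries the seed of the miR-7, miR-128, miR-137 or miR-219a guides, and Mir7002 carries that of miR-218-5p on its 3p arm. Mir7002 had 0 counts in both libraries.

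The arm opposite the guide differs between the copies of the Mir7, Mir128 and Mir218 families, and these sequences, with that of Mir219a-1, are shown because they can place a read at 1 gene. Bases 2 to 8 are again in capitals.
miR-7a-1-3p, from Mir7-1: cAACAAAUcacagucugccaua
miR-7a-2-3p, from Mir7-2: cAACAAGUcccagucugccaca
miR-7b-3p, from Mir7b: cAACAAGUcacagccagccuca
miR-128-1-5p, from Mir128-1: cGGGGCCGuagcacugucuga
miR-128-2-5p, from Mir128-2: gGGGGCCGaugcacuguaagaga
miR-218-1-3p, from Mir218-1: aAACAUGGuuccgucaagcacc
miR-218-2-3p, from Mir218-2: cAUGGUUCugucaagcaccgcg
miR-219a-1-3p, from Mir219a-1: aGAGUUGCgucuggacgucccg

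The opposite arms of Mir7-1 and Mir7-2 differ at 3 positions, A7G, A10C and U21C, with the Mir7-1 base first. Each of these 9 opposite arms, that of Mir137 included, was found in 1 of the 1005 hairpins of the RefSeq table. Of the 10 guides, by contrast, 8 were found in the hairpin of a second member, and those of Mir7b and Mir137 in no other hairpin.

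The layout of the tables is that of counting uniquely placed reads, in which a read that spans no more than a shared guide matches both loci and is counted at neither. The longest run shared by Mir7-1 and Mir7-2 was 24 bases, that of Mir128-1 and Mir128-2 was 23, and those of the Mir218 and Mir219a pairs were 22 each. Each run held the whole guide and at most 2 bases more. A guide read 1 base longer at its 3′ end would therefore match only 1 hairpin exactly for Mir128 and Mir219a. For Mir7a and Mir218 it would need 2 more bases. Whether the aligner, whose settings are not known here, placed such reads at 1 locus was not tested. Windows of 22 bases that also occur in a hairpin at another locus made up 1.12% to 4.08% of the windows of these 8 genes. The shared windows lie at the guide, so this is a share of positions in the hairpin and not of reads. No window of 25 bases was shared. Hairpins of the Mir218 and Mir219a pairs are printed to show the point, with the longest shared run in capitals.
Mir218-1: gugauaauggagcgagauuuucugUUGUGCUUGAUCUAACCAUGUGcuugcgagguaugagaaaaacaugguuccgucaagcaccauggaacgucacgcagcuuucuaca
Mir218-2: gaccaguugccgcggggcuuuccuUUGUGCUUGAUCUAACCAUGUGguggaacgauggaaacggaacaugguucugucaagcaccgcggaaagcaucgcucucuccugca
Mir219a-1: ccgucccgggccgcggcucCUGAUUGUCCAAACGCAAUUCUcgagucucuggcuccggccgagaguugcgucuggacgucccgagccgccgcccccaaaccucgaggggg
Mir219a-2: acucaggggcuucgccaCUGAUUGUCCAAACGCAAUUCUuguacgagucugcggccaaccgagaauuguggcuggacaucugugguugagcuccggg

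**Figure D1:**
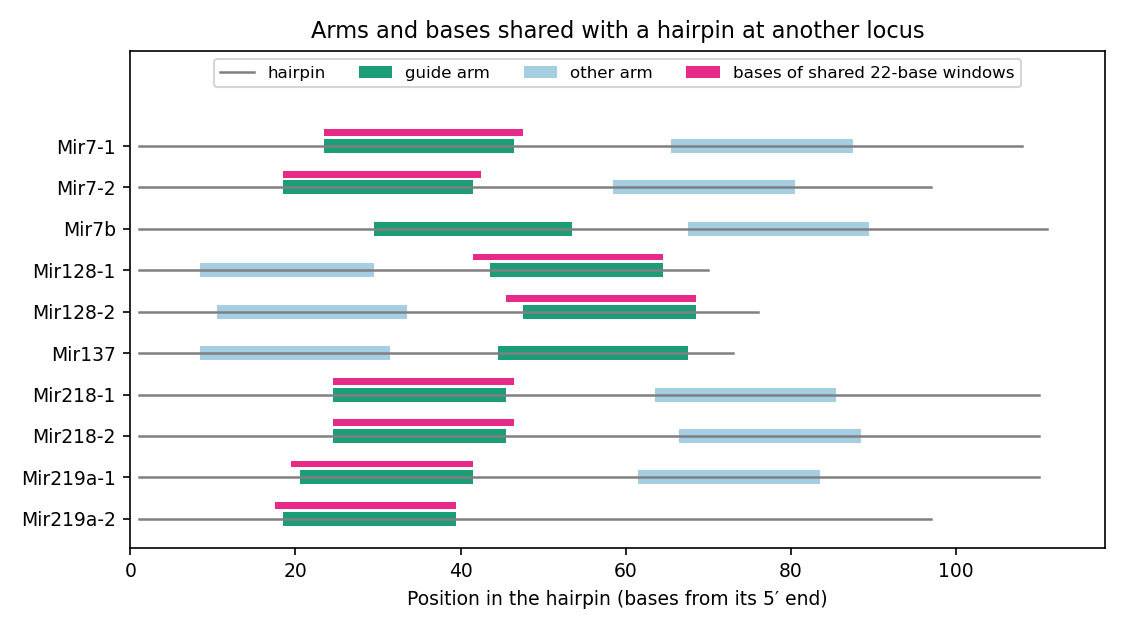
Map of the 10 hairpins, drawn in bases from the 5′ end, with the guide arm in green, the opposite arm in light blue where the RefSeq table lists it, and above them in pink the bases covered by 22-base windows that occur in a hairpin at another locus. In 8 genes the pink bar covers the guide and at most 2 further bases, and Mir7b and Mir137 have none.

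Among mapped reads, 32.3% fell on several loci in replicate 1 and 31.2% did in replicate 2, and the tables do not say which miRNAs they came from. The 2 arms are not separated in the tables either. How much of a count came from the opposite arm or from longer guide reads was not tested, and the values below are levels of uniquely placed reads per gene, not of the mature guide. The guides of Mir137 and Mir7b were found in no other hairpin, so the loss of shared guide reads does not apply to them within the hairpins searched, while their arms are not separated either.

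The 10 genes had low levels of uniquely placed reads in the limb. Of them 9 had at least 10 counts in both libraries, the bar used here for a detected gene, against 17.6% of all 1973 gene rows, most of which hold hairpins with few or no reads. Their summed level was 459 ± 24.2 CPM (SD, n = 2), with 1705 counts or 476 CPM (454 to 499) in replicate 1 and 1580 counts or 442 CPM (420.3 to 464) in replicate 2. The median over the 10 genes was 39.0 CPM, against 0 CPM over all gene rows and 136 CPM over the 348 detected genes, and 0 of the 10 lay above the median of detected genes. In a bulk tissue such as this, fewer cells of a type and less RNA per cell cannot be told apart. Reads of a shared guide can also be missing from 8 of the 10, so a low count there need not be a low level of the mature miRNA.

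**Figure D2:**
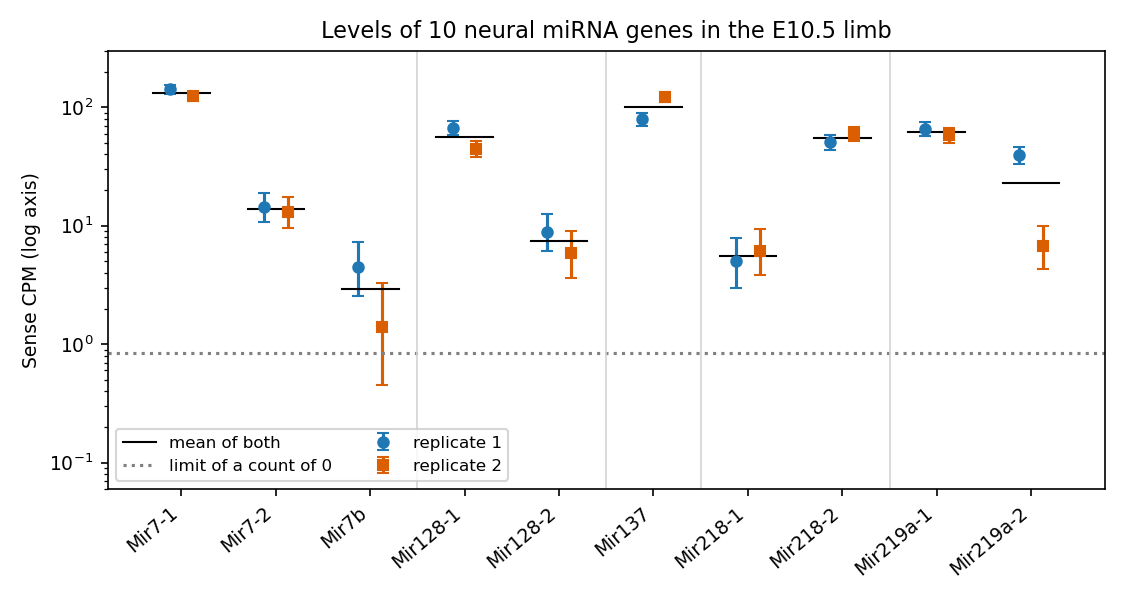
Sense CPM on a log axis of each gene in replicate 1 (circles) and replicate 2 (squares) with 95% exact binomial intervals, the mean of both as a line and, dotted, the level that a count of 0 allows. Mir7-1 and Mir137 are highest at means of 133 and 101 CPM, Mir7b lowest at 2.93 CPM, and the symbols of Mir219a-2 lie far apart at 39.4 and 6.71 CPM.

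Mir7-1 had the highest level of the 10. Its hairpin lies on chromosome 13 (58392779 to 58392886, minus strand, GRCm38) in the last of 17 introns of Hnrnpk, which encodes an abundant RNA-binding protein, and it overlaps no Hnrnpk exon. It had 507 counts or 142 CPM (129.5 to 154) in replicate 1 and 442 counts or 124 CPM (112 to 136) in replicate 2, a mean of 133 ± 12.7 CPM (SD, n = 2) and rank 179 of 1973. Mir7-2 on chromosome 7 (78888277 to 78888373, plus strand) has no annotated host, and the nearest protein-coding gene is Aen, 7481 bases away. It had 52 counts or 14.5 CPM (10.8 to 19.0) and 47 counts or 13.1 CPM (9.66 to 17.5), and both libraries thus placed it about an order of magnitude below Mir7-1. Mir7b on chromosome 17 (56242988 to 56243098, plus strand), also without a host and 13712 bases from Fem1a, was the lowest of the 10. It had 16 counts or 4.47 CPM (2.55 to 7.25) in replicate 1 and 5 counts or 1.40 CPM (0.454 to 3.26) in replicate 2, below the detection bar. Its guide was found in no other hairpin by exact match. Loss of its reads by inexact matches, or at other sites of the genome, was not tested.

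The Mir128 genes were unequal as well. Mir128-1 lies on chromosome 1 (128202361 to 128202430, plus strand) in intron 19 of 26 of R3hdm1, which encodes a protein with an R3H nucleic-acid-binding domain. It had 240 counts or 67.0 CPM (58.8 to 76.0) in replicate 1 and 159 counts or 44.5 CPM (37.8 to 51.9) in replicate 2, a mean of 55.7 ± 15.9 CPM (SD, n = 2). Replicate 1 was the higher, and the intervals did not overlap. Mir128-2 lies on chromosome 9 (112118636 to 112118711, minus strand) in intron 19 of 20 of Arpp21, a gene known for its expression in neurons, where its protein is a cyclic-AMP-regulated phosphoprotein. It had 32 counts or 8.93 CPM (6.11 to 12.6) and 21 counts or 5.87 CPM (3.63 to 8.98), and here the intervals of the 2 libraries overlapped.

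Mir137 was second in the order. It lies on chromosome 3 (118433857 to 118433929, plus strand) in exon 1 of the noncoding transcript gene Gm26871. It had 283 counts or 79.0 CPM (70.1 to 88.8) in replicate 1 and 440 counts or 123 CPM (112 to 135) in replicate 2, a mean of 101 ± 31.1 CPM (SD, n = 2). The 2 libraries differed beyond counting error, with replicate 2 the higher.

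The Mir218 genes have corresponding places in related hosts and unequal levels. Slit2 and Slit3 encode secreted ligands of Robo receptors that guide growing axons. Mir218-1 lies on chromosome 5 (48223942 to 48224051, plus strand) in intron 14 of 35 of Slit2, and Mir218-2 on chromosome 11 (35616816 to 35616925, plus strand) in intron 14 of 35 of Slit3. Mir218-1 had 18 counts or 5.03 CPM (2.98 to 7.94) in replicate 1 and 22 counts or 6.15 CPM (3.85 to 9.31) in replicate 2. Mir218-2 had 181 counts or 50.5 CPM (43.4 to 58.5) and 213 counts or 59.6 CPM (51.8 to 68.1). The Slit2 copy was thus the lower in both libraries, and neither copy differed between the libraries beyond the overlap of its intervals.

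The Mir219a genes lie outside protein-coding hosts. Mir219a-1 on chromosome 17 (34024983 to 34025092, minus strand) is 303 bases from Ring1, which encodes a Polycomb protein, and the noncoding gene Gm26940 covers part of its hairpin on the same strand. It had 235 counts or 65.6 CPM (57.5 to 74.6) in replicate 1 and 207 counts or 57.9 CPM (50.3 to 66.3) in replicate 2, and these intervals overlapped. Mir219a-2 on chromosome 2 (29845631 to 29845727, minus strand) is 629 bases from Urm1, which lies on the other strand and encodes a ubiquitin-like protein that modifies transfer RNAs. It had 141 counts or 39.4 CPM (33.1 to 46.4) in replicate 1 and 24 counts or 6.71 CPM (4.30 to 9.98) in replicate 2. Its mean of 23.0 ± 23.1 CPM (SD, n = 2) has an SD as large as itself and describes neither library.

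By host, the 5 genes inside the protein-coding hosts Hnrnpk, R3hdm1, Arpp21, Slit2 and Slit3 summed to 256 ± 23.6 CPM (SD, n = 2), with means between 5.59 and 133 CPM. The other 5 genes summed to 203 ± 0.583 CPM, with means between 2.93 and 101 CPM. Both sets thus ran from among the lowest to among the highest of the 10, and the sum of the hosted set was 57.4% of the members' counts in replicate 1 and 54.2% in replicate 2. The small SD of the other set hides opposite shifts of its genes. From replicate 1 to replicate 2, Mir137 went from 79.0 to 123 CPM and Mir219a-2 from 39.4 to 6.71 CPM. That SD is therefore no measure of how well its single genes repeated. The tables hold rows of miRNA genes, so the messenger RNAs of the hosts were not measured and no level is set beside them.

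Within 3 of the 4 families with several genes, the split of counts between loci was nearly the same in both libraries. Mir7-1 held 88.2% (85.2 to 90.7) of the Mir7 counts in replicate 1 and 89.5% (86.4 to 92.0) in replicate 2. Mir128-1 held 88.2% (83.8 to 91.8) and 88.3% (82.7 to 92.6) of the Mir128 counts. Mir218-2 held 91.0% (86.1 to 94.6) and 90.6% (86.2 to 94.0) of the Mir218 counts. In each of these families 1 locus gave about 9 in 10 of the uniquely placed reads, and the intervals of the 2 libraries overlapped widely. From which locus the reads of shared guides came was not tested. The Mir219a split was different in the 2 libraries: Mir219a-1 held 62.5% (57.4 to 67.4) in replicate 1 and 89.6% (84.9 to 93.2) in replicate 2, and these intervals did not overlap.

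As log2 ratios of counts with a prior count of 1, Mir7-1 was above Mir7-2 by 3.23 ± 0.039 (SD, n = 2), a 9.41-fold ratio, and above Mir7b by 5.55 ± 0.92. For the last ratio, reads of a shared guide can be missing from Mir7-1 and, within the hairpins searched, not from Mir7b. For the other pairs, such reads can be missing from both genes. Mir128-1 was above Mir128-2 by 2.87 ± 0.0042, a 7.29-fold ratio. Mir218-1 was below Mir218-2, at -3.24 ± 0.030 or 9.44-fold lower. Mir219a-1 over Mir219a-2 was 0.73 (0.43 to 1.05) in replicate 1 and 3.06 (2.50 to 3.78) in replicate 2. Its direction was the same in both libraries while its size was 1.66-fold in replicate 1 and 8.32-fold in replicate 2. The counting intervals were wider than the SD of these ratios for Mir7-1 over Mir7-2, Mir128 and Mir218. In replicate 1 the interval was 2.87 to 3.73 for Mir7-1 over Mir7-2, 2.37 to 3.49 for Mir128-1 over Mir128-2 and -4.12 to -2.63 for Mir218-1 over Mir218-2.

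**Figure D3:**
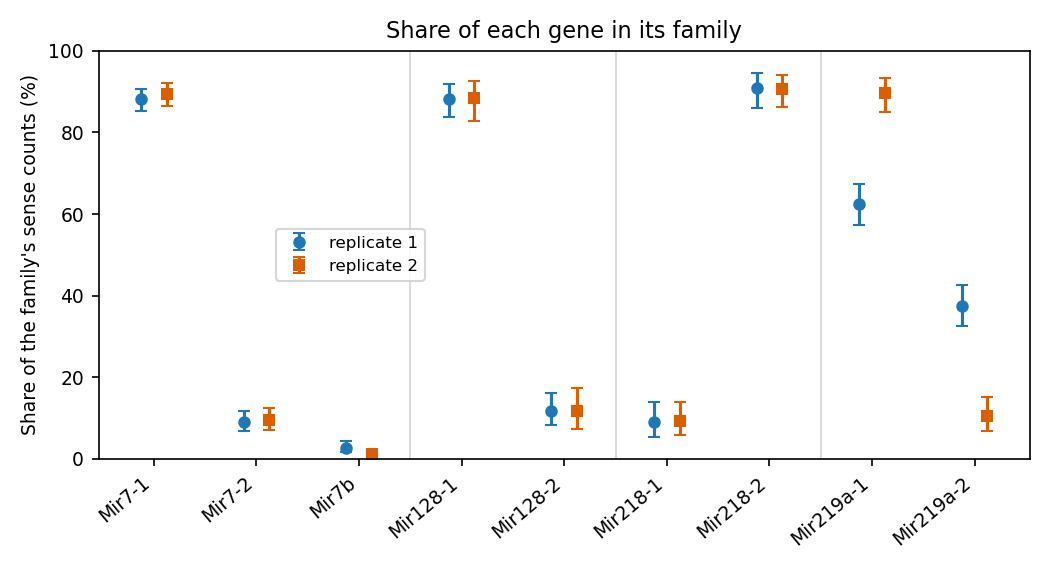
Share of each gene in the sense counts of its family, in percent, in replicate 1 (circles) and replicate 2 (squares) with 95% exact binomial intervals, for the 4 families with several genes. The symbols of the 2 libraries nearly coincide for Mir7-1, Mir128-1 and Mir218-2 near 90% and stand apart for Mir219a-1 at 62.5% and 89.6%.

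By family, the Mir7 genes summed to 149 ± 15.8 CPM, Mir137 gave 101 ± 31.1 CPM, the Mir219a genes 84.8 ± 28.6 CPM, the Mir128 genes 63.1 ± 18.1 CPM and the Mir218 genes 60.6 ± 7.17 CPM (SD, n = 2 each). The Mir7 family had the highest value in both libraries, with 161 and 138 CPM. In replicate 2 its interval (126 to 151) overlapped that of Mir137 (112 to 135). Reads of shared guides can be missing from the families with several genes and, within the hairpins searched, not from Mir137. The order is therefore one of uniquely placed reads. The order of the families below Mir7 changed: Mir219a was second in replicate 1 with 105 CPM and had 64.6 CPM in replicate 2, where Mir137 was second. Among single genes, 5 of the 9 neighbouring pairs in the order of mean level had library values that did not overlap, namely Mir7-1 over Mir137, Mir137 over Mir219a-1, Mir218-2 over Mir219a-2, Mir7-2 over Mir128-2 and Mir218-1 over Mir7b. In each of these 5 the counting intervals of the 2 genes were apart in 1 library and overlapped in the other, as for Mir7-1 and Mir137 in replicate 2 with 442 and 440 counts. The library values of the other 4 pairs overlapped, so Mir219a-1, Mir128-1 and Mir218-2 at 61.7, 55.7 and 55.0 CPM were not ordered by these data. Mir219a-2 and Mir7-2 were not ordered either, nor were Mir128-2 and Mir218-1.

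Between the libraries, the 9 detected genes had a median log2 ratio of replicate 2 over replicate 1 of -0.18, against -0.27 over the 250 genes that averaged 100 counts or more, where the SD was 0.66. Of the 9, 5 averaged 100 counts or more. Lower values in replicate 2 were found for 6 of the 9, for 237 of all 348 detected genes and for 167 of those 250 genes. With TMM library sizes, which move the median of those genes to 0.018, it was 3 of 9 and 121 of 250, so the direction of small ratios is not settled. Mir137 stood highest, at 0.64 (0.42 to 0.86) and rank 334 of 348 detected genes counted from the lowest ratio. Mir128-1 at -0.59 (-0.89 to -0.30) and Mir7-1 at -0.195 (-0.383 to -0.009) were below 0, and Mir7-1 turned to 0.094 with TMM. With TMM, which shifts all genes alike, Mir137 stood at 0.93 and Mir128-1 at -0.30, beside the median of 0.018. The intervals of Mir7-2, Mir128-2, Mir218-1, Mir218-2 and Mir219a-1 included 0.

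Mir219a-2 was the exception, at -2.50 (-3.24 to -1.92) or 5.67-fold lower in replicate 2. It ranked 4 from the lowest among the 348 detected genes. More than 2-fold lower values in replicate 2 were found for 1 of the 9 detected members, against 11.5% of the detected genes, and more than 2-fold higher values for 0 of the 9, against 1.72%. With 1 group of 2 libraries this difference has no test, and it concerns these 2 pools. Replicate 1 had 10064833 reads, of which 32.3% were unmapped, and replicate 2 had 7218612, of which 18.6% were unmapped. The part of these library differences in the Mir219a-2 values was not tested. Mir219a-1, with the same guide, had -0.18 (-0.46 to 0.095). Mir7b, below the detection bar with 16 and 5 counts, had -1.50 (-3.48 to -0.16).

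**Figure D4:**
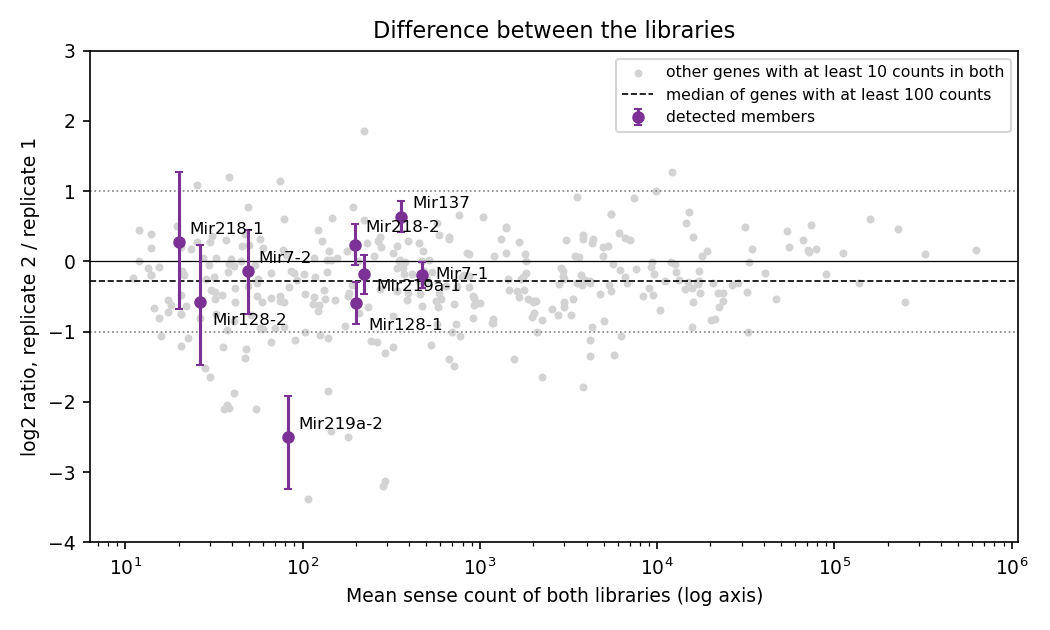
Log2 ratio of replicate 2 over replicate 1 against the mean sense count (log axis) for the detected genes, with the 9 detected members in purple with 95% exact conditional binomial intervals, the median of -0.27 dashed and 2-fold differences dotted. Mir219a-2 at -2.50 lies apart from the other members, which run from -0.59 to 0.64.

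Other miRNA genes known from neurons were measured for context, from a list of 16 of which Mir9-1 was not analysed here. Of the other 15, 7 were detected, against 9 of 10 members and 17.6% of all gene rows. Their sum was 229.5 ± 7.86 CPM, so the members' sum was 2.00-fold higher at a log2 ratio of 1.00 ± 0.027 (SD, n = 2). The most abundant were Mir138-2 at 77.1 ± 7.59, Mir138-1 at 36.0 ± 5.17, Mir384 at 32.4 ± 0.824 and Mir132, a gene induced by neuronal activity, at 31.8 ± 9.45 CPM. The Mir124a genes, which encode the most neuron-restricted of these miRNAs, had 0 counts in both libraries at each of 3 loci. Mir9-2 had 1 and 0 counts and Mir9-3 had 7 and 5. The Mir124a, Mir9 and Mir138 guides are each encoded at several loci, so their counts carry the limit described above for shared reads, and a count of 0 there sets no limit on the mature miRNA.

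Against lists of other cell types, the members' sum was below each. It was 57.5-fold lower than the sum of the 7 genes listed for mesenchyme, at a log2 ratio of -5.84 ± 0.25. Of that sum Mir214 gave 18552 CPM, while Mir145a at 74.5 CPM and Mir199a-1 at 20.8 CPM lay within the range of single members. The other genes listed for mesenchyme lay above that range. The members' sum was 54.8-fold lower than Mir126a, a miRNA of endothelium, at -5.78 ± 0.046. The difference was 25.1-fold to the 7 epithelial genes and 14.1-fold to the 3 genes of the Mir183 cluster of sensory cells. Mir375, a miRNA of endocrine cells, alone was 2.25-fold higher than the 10 genes together, with 1033 ± 99.3 CPM. These are ratios of uniquely placed reads, and reads of shared guides can be missing from 8 of the 10 members. How many listed genes share a guide between loci was not tested. The loss need not be equal on both sides, so these folds are not ratios of mature miRNAs.

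**Figure D5:**
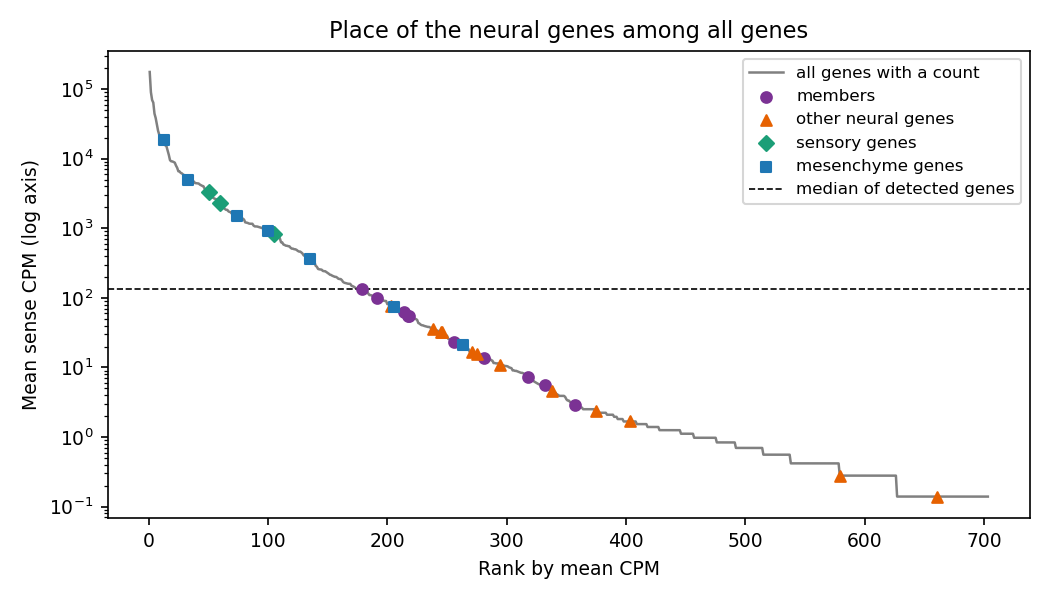
Mean sense CPM (log axis) against rank for the genes with a count, with the members as purple circles, other neural genes as orange triangles, sensory genes as green diamonds, mesenchyme genes as blue squares and the median of detected genes dashed. The members run from rank 179 to rank 357, below the sensory genes, and none lies above the dashed line at 136 CPM. Of the mesenchyme genes, Mir145a at rank 206 and Mir199a-1 at rank 263 lie within the range of the members.

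Genes with the closest mean levels give a scale for these values. Mir7-1 lay between Mir185 at 133 ± 0.729 and Mir412 at 132 ± 40.4 CPM, and Mir137 between Mir1981 at 103 ± 4.44 and Mir30b at 99.5 ± 1.29 CPM (SD, n = 2). Mir219a-1 lay between Mir181b-1 and Mir3072, Mir128-1 between Mir33 and Mir218-2, and Mir218-2 above Mir452. Mir219a-2 lay between Mir222 and Mir326, Mir7-2 between Mir1198 and Mir338, Mir128-2 between Mir26a-1 and Mir1947, and Mir218-1 between Mir7658 and Mir599. Likeness here is nearness of mean CPM over 2 libraries. Within these neighbours the SD ran from 0.205 CPM for Mir26a-1 to 40.4 CPM for Mir412.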

How the data were processed

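Small RNA was sequenced from 2 pools of limb tissue. Per the deposited readme texts, reads were aligned to mm10 and counted over GENCODE M4. For the aligner, counter and trimming, names and versions were not given in the sources used here. The deposited values are raw counts per miRNA gene and library, for both strands, sense and antisense, and 4 rows of reads given to no gene were left out of CPM totals. No value here was normalized by the authors, as whole numbers in the tables show. Names, coordinates and hosts came from GENCODE M21 (GRCm38), which held 1894 of 1973 identifiers, and sequences from RefSeq (GRCm38.p6), which matched 10 of 10 members. Host introns were numbered in the host transcript with the longest span. Shared windows were searched in RefSeq hairpins on both strands, not in the genome.

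CPM, SD, exact intervals and ratios (prior count 1) were computed with scipy 1.17.1 and pandas 2.3.3 under Python 3.11.15 and tested on simulated data. Intervals of ratios are those of the raw counts. Alternatives used edgeR 4.0.16 TMM factors, DESeq2 1.42.0 size factors, mapped reads, both strands, other detection bars and prior counts, and each library alone. Members and lists were chosen with earlier results of these data known. Members were all named, with the 4 highest other neural genes and the nearest genes by mean CPM. Other genes were named after their values were seen.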

Additional observations from a re-analysis of the deposited data

Results flagged for a closer look

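Reads on the strand opposite a member were found at 1 of the 10 genes. At Mir219a-1 there were 6 antisense counts in replicate 1 and 5 in replicate 2, above the 3 counts that a count of 0 allows, which made up 2.49% (0.919 to 5.34) and 2.36% (0.770 to 5.42) of the reads on both strands (95% exact binomial intervals). Over all genes the antisense share was 2.30% and 1.70%, within both intervals. The annotation has the miRNA gene Mir219c on that strand, which has no row of its own in the tables. At Mir219a-2, which the miRNA gene Mir219b overlaps on the opposite strand, there were 0 antisense counts in both libraries.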

How the results depend on the processing

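The members' sum of 459 CPM became 259.5 when scaled per 1000000 mapped reads, 326 without Mir7-1 and 104 for Mir137 and Mir7b alone, whose guides lie at 1 locus. With each library alone it was 442 to 476. The number detected was 8 to 10 under the other bars and 9 to 10 in single libraries. With prior counts of 0.5 and 5, Mir128-1 over Mir128-2 was 2.89 and 2.69 and Mir218-1 over Mir218-2 was -3.27 and -3.01. A prior count of 5 gave 3.14 for Mir7-1 over Mir7-2. In single libraries Mir7-1 over Mir7b was 4.90 to 6.21 and Mir219a-1 over Mir219a-2 was 0.73 to 3.06. Scaling by TMM, DESeq2 size factors or mapped reads shifts the ratios of all genes between libraries alike. In that order it changed the sign for Mir7-1 (0.094, 0.081 and 0.017), Mir7-2 (0.15, 0.14 and 0.072) and Mir219a-1 (0.11, 0.096 and 0.033), and raised Mir137 to 0.93, 0.91 and 0.85. Per gene, 8 of 40 levels moved beyond their SD, each of them when scaled by mapped reads. No paired analysis was possible because there was 1 group. Depth limits Mir218-1 and Mir128-2, whose ratios between the libraries had intervals of -0.67 to 1.28 and -1.47 to 0.23. Differences within those widths could not be told from 0 at these counts.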
